A study of Arabidopsis thaliana with 7 samples.

Results

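UVR8 is the receptor through which Arabidopsis senses UV-B, and RUP1 and RUP2 are its repressors. Peaks of HY5-YFP, the bZIP transcription factor HY5 fused to yellow fluorescent protein, were examined at these 3 genes. Members were the peaks of the 6 deposited lists whose centre lay from 1500 bp outside to 500 bp inside either end of RUP1 (AT5G52250), RUP2 (AT5G23730) or UVR8 (AT5G63860). This gave 12 of 41276 peaks. Joined where they shared at least 1 bp, they made 3 of 10233 sites, of which 1 belonged to RUP1, 2 to RUP2 and 0 to UVR8. The genes and their windows were picked with the peak calls of these lists known, so the presence or absence of a member peak is given as a description.

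The blue and the red light group comprised 3 biological replicates each, and the mock was a single sample. All plants were of the Wassilevskija (Ws) accession, carried the hy5-ks50 T-DNA insertion and expressed HY5-YFP. They were grown in cycles of light and dark, then moved to blue or to red light for 52 hours, at a fluence rate of 15 µmol m-2 s-1. Whole plants 10 days old were fixed, and the labels name no UV-B treatment. The mock was pulled down from mixed blue light chromatin with beads lacking the antibody, and it served as control for the red lists too. The promoter that drives the fusion is not named in the sources, and pull-down from plants without the fusion was not analysed here.

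In UV-B, UVR8 dimers come apart and the monomers bind the ubiquitin ligase COP1, which otherwise marks HY5 for degradation. HY5 then accumulates and acts on genes of flavonoid synthesis, photoprotection and DNA repair. RUP1 and RUP2 are closely related WD40-repeat proteins that return UVR8 to its dimer, and their transcripts are themselves induced in UV-B through UVR8, COP1 and HY5. The receptor therefore sits at the head of this circuit, and the RUP proteins close a negative feedback loop.

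Depth was 7.99 to 11.68 M tags in the blue and 10.64 to 11.89 M tags in the red libraries. The lists held 8524 to 8888 peaks under blue and 4027 to 5672 under red light. A listed signal is the number of tags in the peak window, which the authors rescaled to a library of 10 M tags, where M stands for 1e6. Red light replicate 1 was counted in windows of 549 bp, against 341 to 349 bp in the blue and 307 to 313 bp in the other red libraries. Its tag numbers at the RUP genes are the highest of the red group, and the tests that use it are also given without it. A window that failed a threshold of the caller is not listed, so a missing peak has no tag number and does not mean a signal of 0.

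UVR8, the receptor, had no peak within its window in any of the 6 lists. No peak centre lay anywhere else inside UVR8 either. The nearest peak in every list lay at the far side of the neighbouring gene PP7. It had 478.5, 393 and 443 tags per 10 M in blue light replicates 1, 2 and 3, and 429.7, 261 and 270.1 tags in the red light ones. Of 27444 protein-coding genes, 43.4% had a consensus site under blue and 26.5% under red light, where a consensus site means peaks in 2 or 3 libraries of that light. The red share was 25.0% without red light replicate 1, and with lists shortened to the same number of highest peaks the shares were 20.9% under blue and 20.9% under red light. UVR8 was among the genes without one in both lights, which shortening the lists could not change. To be considered, a window needed at least 51.4 to 56.3 tags per 10 M in the blue and 46.8 to 74.3 in the red libraries, the tag threshold of the file headers rescaled, so a lower signal at UVR8 was not detectable.

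**Figure D1:**
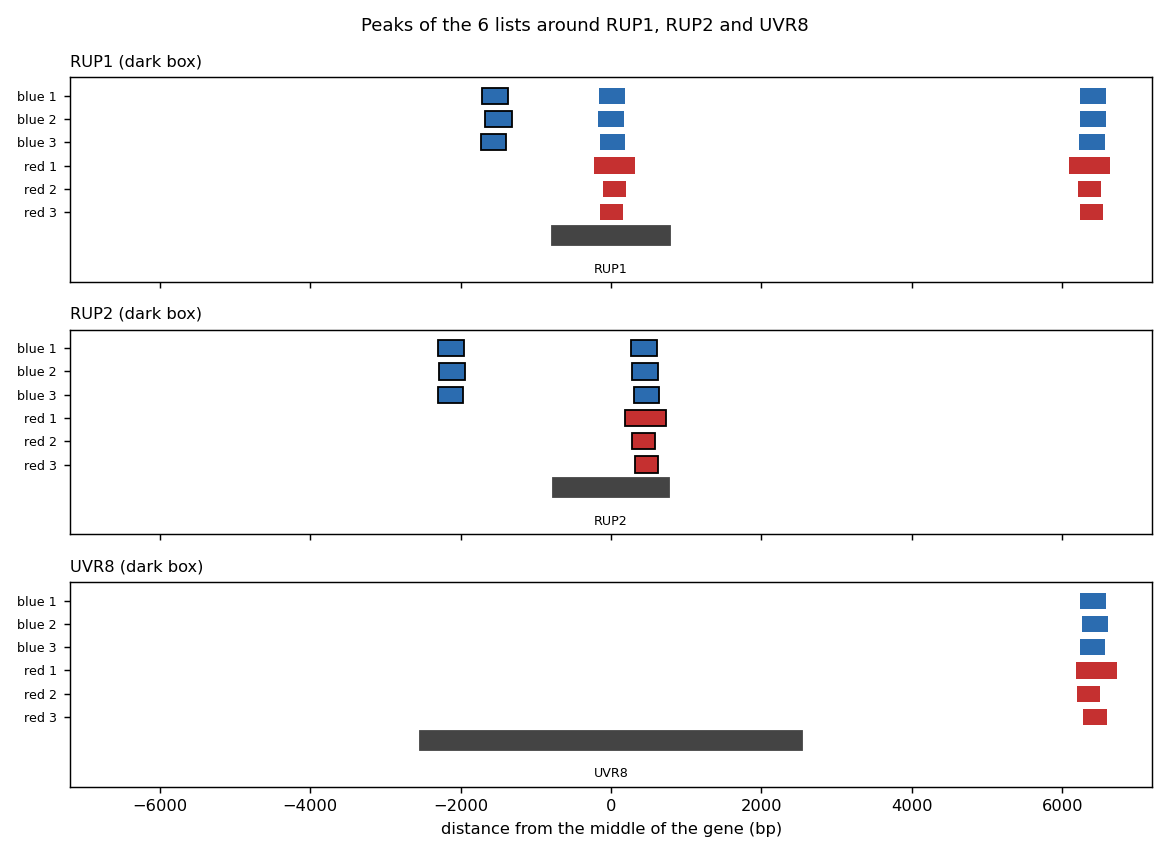
Peak windows of the 6 lists (blue and red bars, 1 row per library, blue rows above red rows) around RUP1, RUP2 and UVR8 (dark boxes), by distance from the middle of the gene in bp. Outlined bars are the member peaks; RUP1 and RUP2 each have a blue-only site beside the gene and a site inside it in all 6 lists, and UVR8 has no peak. Gene boxes follow the RefSeq table of assembly TAIR10.1.

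RUP1 had its member site in the stretch between MSBP1 (AT5G52240) and RUP1, at chr5:21215829-21216237 (TAIR10). The peak was in all 3 blue lists and in no red list. It had 761, 759.5 and 711 tags per 10 M in blue light replicates 1, 2 and 3. The mean was 744 ± 28.6 tags (SD, n = 3), so the blue replicates lay close together. These peaks ranked 425th of 8724, 424th of 8524 and 506th of 8888 by tags, among the top 4.87%, 4.97% and 5.69% of their lists. They stood 10.1-, 9.99- and 9.35-fold over the mock and 13.3 ± 0.31-fold over the surrounding 10000 bp (SD, n = 3), by the authors' values. The centres of the 3 blue peaks fell within 64 bp of each other.

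Absence from the red lists was uncommon at this height. Of the 443 sites in all 3 blue lists that were at least as high in blue light, this was the 1 site without a red peak. Of the 209 sites within a factor of 1.1 of its blue level, 204 were in all 3 red lists and 2 in none. Over all 7422 sites in the 3 blue lists, 20.5% were in no red list. RUP1 came into view through this pattern, so these counts describe it and carry no test.

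The mock signal under the RUP1 intergenic site was high. It was 52 mock tags in each blue window, above that of 97.8% of the sites in all 3 blue lists, whose median was 19.3 mock tags. Scaled to 10 M tags this is 76.0 tags, and the 4-fold excess that a peak needed corresponds to 304 tags per 10 M, or 40.9% of the blue mean. Red windows have other widths and hold other numbers of mock tags, so the bar for a red peak at this site is not known, and a signal below it would not have been listed. Of the 161 sites in all 3 blue lists with at least 52 mock tags, 154 were in all 3 red lists and 3 in none. Among the 1054 sites whose blue fold over the mock was within a factor of 1.1 of that of RUP1, 675 were in all 3 red lists and 91, or 8.63%, in none. The part of the mock in the missing red peak was not tested.

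A second RUP1 peak lay inside the gene itself, at chr5:21217332-21217880, and it was in all 6 lists. Its centre was more than 500 bp from both gene ends, just outside the window that chose the members, and RUP1 therefore appears without a red peak where windows stop 500 bp inside the gene. With windows that reach to any point inside the gene, chosen after this was seen, RUP1 had peaks in 3 blue and 3 red libraries. The gene-body peak had 454, 441 and 420.4 tags per 10 M in blue light, against 576, 377 and 332 tags in red light replicates 1, 2 and 3. Red light replicate 1 was above all blue values and the other red values were below them, so the groups overlapped. All 3 blue values were above all 3 red ones at 59.4% and below them at 0.169% of the sites in all 6 lists. Without red light replicate 1 the blue values at RUP1 were above both red ones, as at 98.5% of the sites in the other 5 lists, and they were below them at 0.13%. The mock was low here, with 12, 13 and 13 tags in the blue windows and 26, 11 and 12 tags in the red ones. By the authors' values the peak stood 23.7 ± 1.92-fold over the mock under blue light (SD, n = 3) and 15.2-, 23.4- and 18.9-fold in red light replicates 1, 2 and 3.

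The RUP1 gene-body site was tested with limma on log2(tags per 10 M + 1) among the 3557 sites with a peak in every library, and p-values were adjusted over these sites by the Benjamini-Hochberg method (threshold 0.05). Its means were 438 ± 16.8 tags under blue and 428.5 ± 129.9 under red light (SD, n = 3 each). The log2 fold of blue over red was 0.07 (SE 0.21, adjusted p = 0.739), and the site did not pass. At 51.9% of the tested sites tags were higher in blue light by this test, at 0.0281% higher in red light, and the median log2 fold was 0.48. The fold at RUP1 was higher than that of 2% of these sites.

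Scaling and red light replicate 1 moved this value across the threshold. Without red light replicate 1 the RUP1 gene-body site was higher in blue light by 0.31 (SE 0.08, limma adjusted p = 0.000297), when the median over sites was 0.65. With each library centred on its median, which removes the shift common to all sites, it lay toward red light by -0.45 (SE 0.08, limma adjusted p = 1.71e-05). Such centred calls toward red light were made at 11.8% of the sites and calls toward blue light at 7.96%. A centred fold below 0 is relative to the other sites and does not mean fewer tags in blue light.

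Within RUP1 the sites thus had unlike records in the lists. Their centres were 1559 bp apart, more than the 612 to 1098 bp that the caller required between peaks in the red libraries. In every blue library the intergenic site was the higher one, with 1.68, 1.72 and 1.69 times the tags of the gene-body site. The red libraries listed the gene-body site alone. Since the intergenic site has no red value, the difference between both sites in their response to light was not tested.

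**Figure D2:**
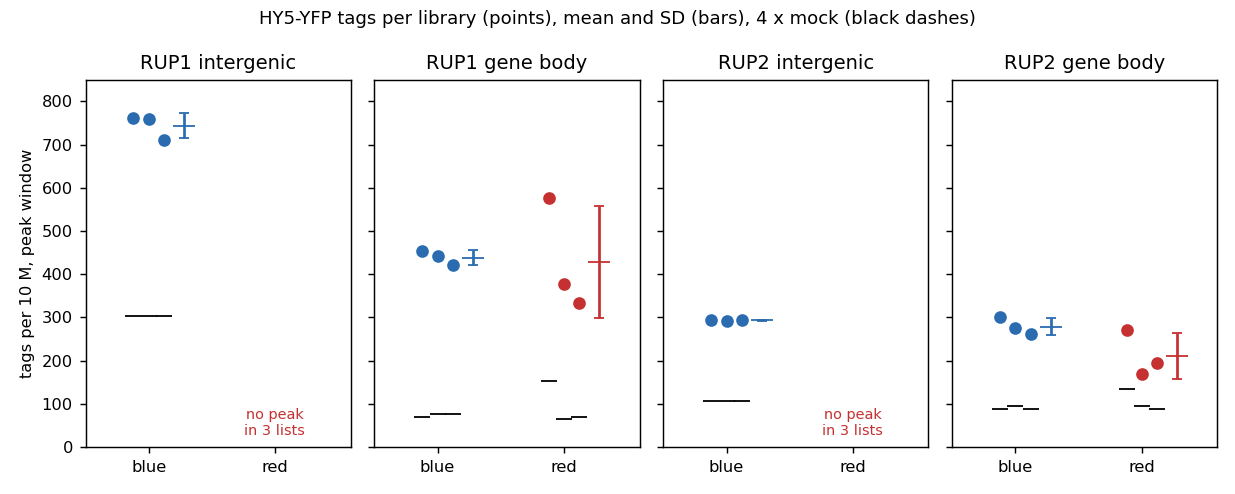
Tags per 10 M in the peak window for each library (points), with the mean and SD of each light (bars beside the points), at the RUP1 and RUP2 sites, blue light left of red light. Black dashes mark 4 times the mock signal of the same window; both intergenic sites have blue values alone (744 ± 28.6 and 293 ± 1.2), and at the gene-body sites red light replicate 1 is the highest red library.

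RUP2 had 2 member sites, and their arrangement resembled that of RUP1. The first lay between PHS1 (AT5G23720) and RUP2, at chr5:8003555-8003917, and its nearest gene end was that of PHS1. It was in all 3 blue lists and in no red list. Its peaks had 293, 292 and 294 tags per 10 M in blue light, with a mean of 293 ± 1.2 tags (SD, n = 3). They stood 11.2-, 11.1- and 11.2-fold over the mock, which held 18 tags in each window, and 6.84 ± 0.34-fold over the surroundings (SD, n = 3). This site was near the outer limit of the window, and it fell outside when the window reached 1000 bp instead of 1500 bp outward.

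The RUP2 intergenic site was lower than that of RUP1, among sites that more often lacked a red peak. Of the 888 sites in all 3 blue lists within a factor of 1.1 of its blue level, 528 were in all 3 red lists and 102, or 11.5%, in none. Among the 946 sites whose blue fold over the mock was within a factor of 1.1 of that of RUP2, 639 were in all 3 red lists and 66, or 6.98%, in none, a lower share than the 8.63% at RUP1. Among the 1521 sites in all 3 blue and no red lists, it was the 90th highest in blue light. Its mock signal was near the median of 19.3 tags. The 4-fold bar corresponded to 105 tags per 10 M, or 36.0% of the blue mean, and a 4-fold excess over the surroundings, as they were in the blue libraries, to 163 to 178 tags. These bars belong to the blue windows, and whether red light libraries had a signal below their own bars cannot be read from the lists.

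The other RUP2 site lay inside the gene near its end on the side of higher coordinates, at chr5:8006044-8006592, and was in all 6 lists. It had 300.5, 275 and 260.3 tags per 10 M in blue light, against 269.8, 168 and 194 tags in red light replicates 1, 2 and 3. Red light replicate 1 lay within the blue range and both other red values were below it, so these groups overlapped too. The mock held 15, 16 and 15 tags in the blue and 23, 16 and 15 tags in the red windows, and the authors' fold over the mock was 12.4 ± 1.09 under blue light (SD, n = 3) and 8.05, 7.19 and 8.86 in red light replicates 1, 2 and 3. The lowest of these peaks, in red light replicate 2, rested on 194 whole tags, with an exact Poisson 95% interval of 145 to 194 tags per 10 M that covers counting error only.

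The RUP2 gene-body site averaged 279 ± 20.3 tags under blue and 211 ± 52.8 under red light (SD, n = 3 each). Its log2 fold of blue over red was 0.43 (SE 0.21), and it did not pass (limma adjusted p = 0.0713). The median over all tested sites was 0.48, and 36.3% of them had a lower fold. The call changed with red light replicate 1 and with the sites tested. Without that library the log2 fold was 0.62 (SE 0.10, limma adjusted p = 2.12e-08), beside a median of 0.65 over the sites then tested. Tags relative to the mock tags of the same window, which for red light replicate 1 come from 549 bp as well, gave 0.62 (SE 0.11, limma adjusted p = 0.00109). With sites in at least 2 of 3 libraries of each light the fold stayed at 0.43 and passed (SE 0.18, limma adjusted p = 0.0426). With each library centred on its median the value was -0.10 (SE 0.10, limma adjusted p = 0.516).

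Both RUP genes thus had a peak inside the gene in all 6 libraries and an intergenic peak in the blue lists alone. The gene-body centres were 1559 bp from the intergenic ones at RUP1 and 2582 bp at RUP2. The balance between the sites differed between the genes. At RUP1 the intergenic site had 1.70 ± 0.02 times the tags of the gene-body site in blue light, and at RUP2 1.05 ± 0.08 times (SD, n = 3 libraries each). The intergenic RUP1 site was the highest of the 4 in blue light, followed by the RUP1 gene-body site, while the blue values of both RUP2 sites overlapped. In red light the RUP1 gene-body site was above the RUP2 one in every library. The gene table used here gives no strand, so which of these sites lies before the start of transcription was not analysed here.

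**Figure D3:**
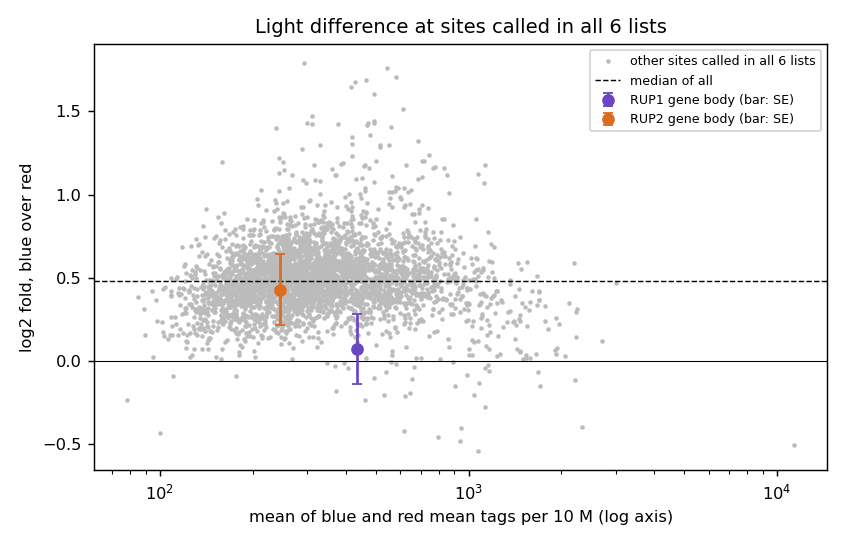
Log2 fold of blue over red (vertical axis) against the mean of both light means in tags per 10 M (horizontal log axis) for the 3557 sites called in all 6 libraries, with the RUP1 and RUP2 gene-body sites and their SE. RUP1 lies at 0.07, below the dashed median of 0.48, and RUP2 at 0.43, near it.

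The share of tags found in the orientation that a point source gives, a value the authors list for each peak, was not used to choose the members. At the RUP1 intergenic site it was 0.827, 0.825 and 0.848 in the blue libraries, and at the RUP2 intergenic site 0.843, 0.84 and 0.828. Library medians over all peaks were 0.819 to 0.823 in blue light. The RUP1 gene-body site had lower shares, with 0.762, 0.749 and 0.734 under blue and 0.765, 0.762 and 0.722 under red light, beside red library medians of 0.783 to 0.805. The RUP2 gene-body site had 0.833, 0.795 and 0.817 under blue and 0.755, 0.801 and 0.742 under red light. The RUP1 gene-body values were thus below the library median in all 6 libraries, and the RUP2 gene-body values in all but blue light replicate 1. How often other sites lie below it in every library was not counted.

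**Figure D4:**
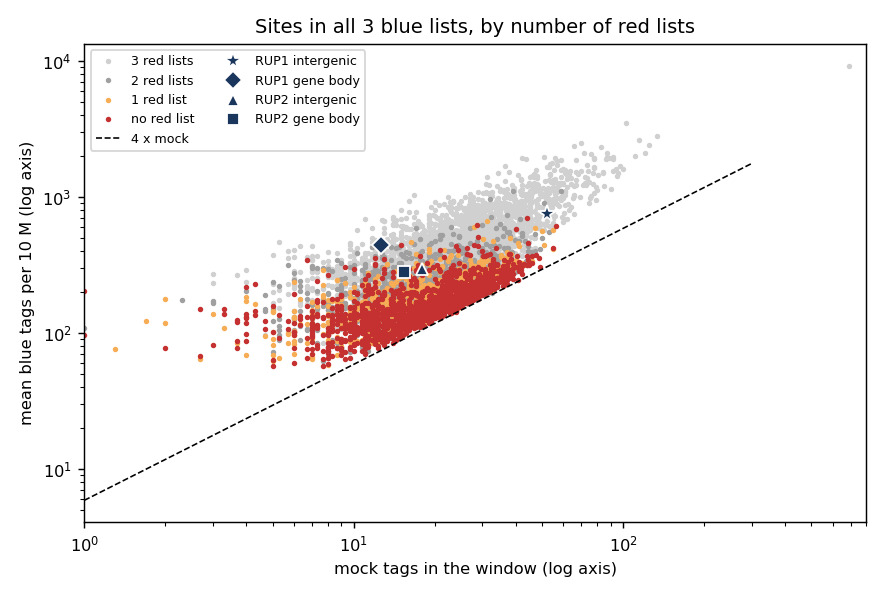
Mean blue tags per 10 M (vertical log axis) against mock tags in the window (horizontal log axis) for the 7422 sites in all 3 blue lists, coloured by the number of red lists that hold the site, with the RUP sites marked. The dashed line is 4 times the mock; the RUP1 intergenic site, at 744 tags and 52 mock tags, lies among sites that are mostly in 3 red lists, and the RUP2 intergenic site, at 293 tags and 18 mock tags, among sites of mixed colour.

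The sites most like each intergenic site in blue level were sought among the other 1520 sites in all 3 blue and no red lists, by the root mean square difference of log2(tags per 10 M + 1) over the 3 blue libraries. For RUP1 the nearest were beside AT1G64500 (0.146), SETH6 (0.284), AT5G64780 (0.29), AT1G70000 (0.361) and AT3G59390 (0.552). They had means of 694, 613, 619, 579 and 508 tags. Each had to be lower than RUP1, which was the highest of the sites in no red list. Their mock tags were 44.0, 56.3, 28.7, 40.0 and 29.0, and the median over sites in no red list was 18.0. Of those 1521 sites only 9 had at least 438 tags in blue light, so that median belongs to lower sites. Mock tags among sites of like height were not compared. For RUP2 the nearest were beside NAP (0.023), AT5G55180 (0.029), RAP2.1 (0.031), XI-I (0.035) and AT2G23890 (0.037), with means of 285.5 to 297.5 tags.

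The genes that act with UVR8 and the RUP proteins were described from a list of 41 others, chosen with earlier results of these data known and in part because they are known HY5 or UV-B targets. Of these, 34 had a consensus site under blue and 26 under red light, against 43.4% and 26.5% of all protein-coding genes. With lists of equal length the numbers were 25 under blue and 25 under red light, against 20.9% of all protein-coding genes in each light. Why the full lists differ in length was not tested. In blue light alone 8 of the 41 had a consensus site and in red light alone 0, against 4695 and 52 of 27444 protein-coding genes. A further 5 genes had no peak in any list, which was not counted over all genes. In comparison, RUP1 was 1 of the genes with a blue consensus site and no red peak in its window, as were 5 of the 41 and 11.2% of all protein-coding genes. Of the 24 listed genes whose highest site was in all 6 libraries, 11 were higher under blue and 0 under red light by limma, against 51.9% and 0.0281% of all tested sites, and their median log2 fold was 0.42 beside 0.48. After centring, 8 of the 24 lay toward blue and 7 toward red light by limma, against 7.96% and 11.8% of the sites. Without red light replicate 1, 23 were higher under blue light and HY5 was higher under red light by limma, against 98.1% and 0.13% of the sites then tested.

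Among 10 genes of the COP1/SPA complex and its CUL4 ligase partners, consensus sites were found at 7 under blue and at 6 under red light. SPA1, a WD40 partner of COP1, had 1513 ± 77.5 tags under blue and 1341 ± 396 under red light. It did not pass in the main fit (log2 fold 0.21, limma adjusted p = 0.366). Without red light replicate 1 SPA1 was higher in blue light (0.44, limma adjusted p = 1.57e-13), as were 98.1% of the sites then tested. COP1 itself had 591 ± 31.2 and 303 ± 65.2 tags (0.98, adjusted p = 0.000145), SPA3 972 ± 75.5 and 603 ± 138 (0.71, adjusted p = 0.00838) and SPA4 541 ± 34.8 and 241 ± 61.9 (1.19, adjusted p = 1.63e-06; limma, SD, n = 3 each, blue light first). After centring SPA1 passed toward red light (-0.31, limma adjusted p = 0.000267). COP1, SPA3 and SPA4 then passed toward blue light (0.45, 0.18 and 0.67, limma adjusted p = 1.59e-05, 0.0468 and 1.78e-08). DET1, a repressor of photomorphogenesis, had 117 ± 11.3 tags in blue light and 1 red peak of 78.9 tags. SPA2 and the cullin CUL4, like UVR8, had no peak.

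Of 16 transcription factors that interact with UVR8 or act around HY5, 13 had consensus sites under blue and 10 under red light. The highest sites were at HY5 itself, with 9184 ± 334 tags under blue and 13514 ± 4628 under red light, BBX24, a B-box protein that restrains UV-B responses (782 ± 26.6 and 489 ± 145), HFR1 (638 ± 57.4 and 364.5 ± 122) and PIF5 (512 ± 40.2 and 393 ± 108). The mock was high at HY5 too, with a mean of 695 mock tags, beside the median of 19.3 over sites in all 3 blue lists. The fusion itself carries HY5 sequence, and the part of that sequence or of the mock in the HY5 values was not tested. The log2 fold at HY5 was -0.51 (limma adjusted p = 0.102), and it passed toward red light after centring (-1.03, limma adjusted p = 3.16e-15) and without red light replicate 1 (-0.24, limma adjusted p = 5.23e-17). BBX24 (log2 fold 0.72), HFR1 (0.85), PIF4 (0.79) and MYB77 (0.48) were higher in blue light by limma (adjusted p = 0.00739, 0.00138, 0.00305 and 0.0467). After centring MYB77 lay at -0.05 and BBX24 at 0.19, and neither passed (limma adjusted p = 0.765 and 0.0554). WRKY36, a repressor of HY5 transcription that UVR8 binds, had 438 ± 0.9 and 345 ± 36.9 tags. It did not pass in the main fit (0.35, limma adjusted p = 0.125). Without red light replicate 1 WRKY36 was higher in blue light (0.43, limma adjusted p = 7.45e-07). BES1, FAR1 and CO, the flowering regulator that RUP2 is known to bind, were consensus genes only under blue light, with 236 ± 15.6, 143 ± 8.1 and 140.2 ± 24.0 tags, and 1 red peak at BES1.

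Of 15 genes known to respond to UV-B, 14 had consensus sites under blue and 10 under red light. SIG5, a plastid sigma factor, was highest, with 2083 ± 41.2 tags under blue and 1770.3 ± 396 under red light, followed by F3H (1756 ± 57.8 and 1402 ± 357), ELIP1 (1548 ± 30.3 and 718 ± 289.9) and MYB12 (1168 ± 54.4 and 1102 ± 138). ELIP1 and ELIP2, which encode early light-induced proteins, CRY3 and CHS, which encodes chalcone synthase, were higher in blue light by limma, with log2 folds of 1.18, 1.71, 0.84 and 0.65 (adjusted p = 6.75e-06, 9.79e-13, 0.00193 and 0.0121). After centring CHS lay at 0.13 and did not pass (limma adjusted p = 0.245), while ELIP1, ELIP2 and CRY3 still passed toward blue light. MYB12 (-0.44), UVR3 (-0.32), SIG5 (-0.27), FLS1 (-0.2) and F3H (-0.17) then passed toward red light (limma adjusted p = 7.67e-07, 0.00114, 0.000267, 0.0211 and 0.0247). The photolyase genes UVR2 (1111 ± 10.4 and 882 ± 170.5 tags) and UVR3 (481 ± 5.1 and 424 ± 111) did not pass in the main fit (limma adjusted p = 0.136 and 0.342). Without red light replicate 1 both were higher in blue light (0.48 and 0.42, limma adjusted p = 8.87e-13 and 7.77e-07). CHI (215 ± 20.9 tags), UGT84A1 (259.8 ± 13.9), GPX7 (177 ± 9.0) and WAKL8 (90.5 ± 12.5) were consensus genes only under blue light, and WAKL8 had 1 red peak.

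**Figure D5:**
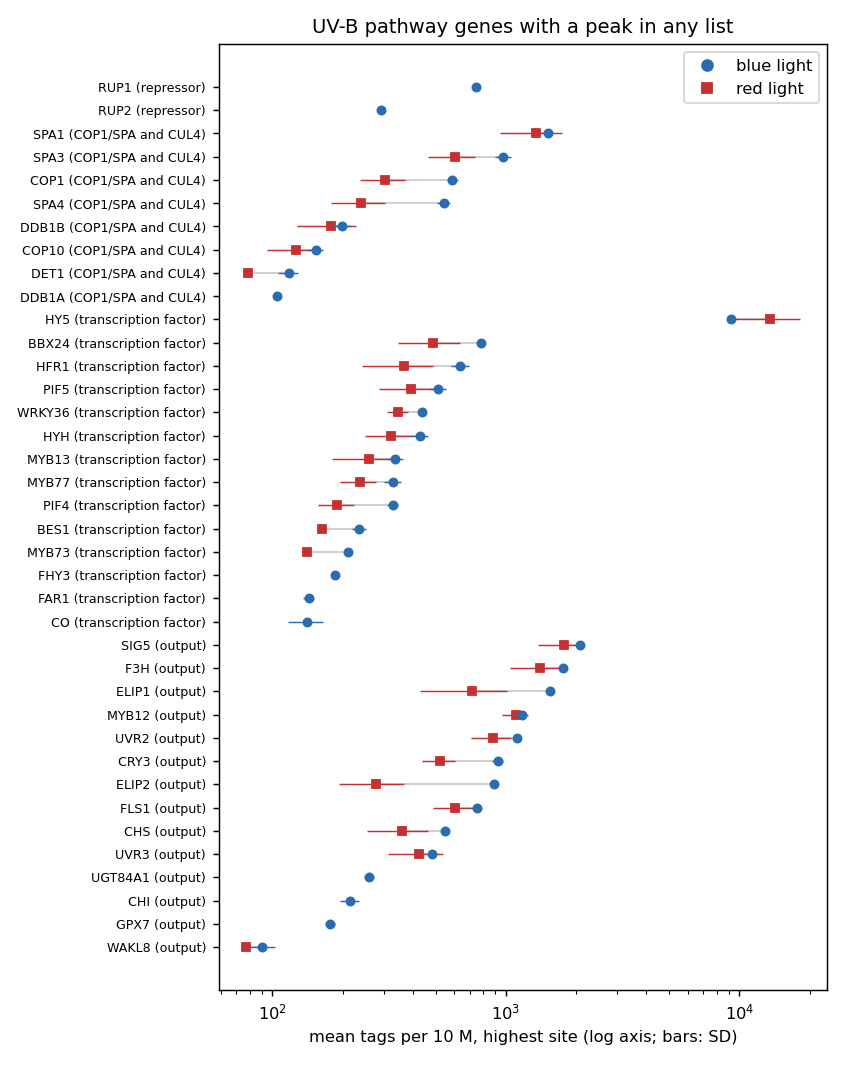
Mean tags per 10 M with SD (horizontal log axis) at the highest site of each gene of the UVR8 circuit with a peak in any list, blue light as circles and red light as squares, grouped by role. RUP1 and RUP2 stand at 744 and 293 tags with a blue value alone, since their highest window sites lacked red peaks. Their gene-body sites are not shown, though that of RUP2 was a member site in all 6 lists (279 tags under blue, 211 under red light). HY5 is the highest gene.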

How the data were processed

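ChIP-seq peak lists of 3 blue and 3 red light libraries were used. Peaks were called by the authors library by library with HOMER findPeaks, factor style, mock as control, per the file headers (4-fold and Poisson p-value of 0.0001 over the mock and over 10000 bp, false discovery rate 0.001). Version 4.9 of HOMER and build TAIR10 are named in the submitters' processing notes; an aligner is not named in the sources. TAIR10 is a Columbia genome, while the plants are Ws. The deposited signal is tags scaled by the authors to 10 M, and multiplied by the library total it was whole within 0.1 for 100% of peaks. The lists also hold the authors' mock tags, ratio (fold) over mock and surroundings, fraction of oriented tags, and p-values, the last not used.

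Peaks sharing 1 bp were joined into sites (Python 3.11.15), the higher one counting where a library had 2 peaks in a site, and tested with limma 3.58.1 in R 4.3.3 on log2(tags + 1), which was tested on simulated data. Named genes followed a rule of all members, the 4 highest pathway genes per role, those with a site in 1 light and those passing limma. All 44 loci were found in the RefSeq table of TAIR10.1, used for names, neighbours and the window. Gene members and lists were chosen with earlier results of these data known. P-values rest on the spread between the biological replicates of the labels, which limma pulls toward the spread common to all tested sites. The SE was 0.21 at both WRKY36 and HFR1, for example, though their SDs are unlike. Red light replicate 1, with its wider windows, is part of that common spread. Planned count tests were not run, since the deposited signal is scaled and was kept in that unit. The alternatives were other scalings, windows, thresholds, joins and left-out libraries.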

Additional observations from a re-analysis of the deposited data

How the results depend on the processing

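The RUP2 gene-body fold passed limma with tags over mock tags (0.62, adjusted p = 0.00109), with sites in at least 2 of 3 libraries of each light (0.43, 0.0426), with tags per 100 bp of window, added after seeing the data (0.54, 0.000137), and without red light replicate 1. It turned to -0.10 with centred libraries, and over left-out libraries it ranged from 0.28 to 0.62. The RUP1 gene-body fold turned to -0.45 with centring, and over left-out libraries it ranged from -0.089 (without red light replicate 3) to 0.31; it was 0.32 with tags over mock tags (adjusted p = 0.0636) and 0.19 per 100 bp of window (adjusted p = 0.139), neither called. With peaks of 8-fold or more over mock, RUP2 had no value in red light replicate 2, so its fold could not be fitted.

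The count of sites higher in blue light, 1846, became 283 with centring, 3193 with tags over mock, 3373 with sites in at least 2 of 3 libraries, 533 with 8-fold peaks, 3424 per 100 bp of window, and 140 to 4543 over left-out libraries. The highest was without red light replicate 1, and without any other library it was at most 220. The count higher in red light, 1, became 421, 6, 3, 1 and 8 in the same order and 0 to 6 over left-out libraries. With the replicate block the counts were 1399 and 0 (2 toward red light by unadjusted p, threshold 0.05), and the folds of RUP1 (0.07, adjusted p = 0.759) and RUP2 (0.43, adjusted p = 0.0885) stayed uncalled. The main fit did not treat same-numbered libraries as pairs. Deviations of same-numbered libraries correlated over sites at -0.04, -0.09 and 0.05, which does not capture a shift common to all sites.

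Members with a red consensus site numbered 2 instead of 1 with windows reaching any point inside the gene, and red pathway genes 13 instead of 26 with 8-fold peaks. Lists of equal length gave 25 blue and 25 red pathway genes. UVR8 had no peak with windows of 3000 bp outward or with windows to any point inside the gene. RUP1 gained a red peak with the latter only. The other alternatives for windows and calls filter or recount the listed peaks. They could not add a peak at UVR8 or a red peak at RUP1. Only listed windows have values, so weak red signal is out of reach. The cause of these shifts was not tested.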
